A study of Mus musculus with 18 samples.

Results

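The 10 genes described here encode the proteins that fold, hydroxylate and crosslink collagen: the collagen chaperone Serpinh1, the prolyl hydroxylase subunits P4ha1 and P4ha2, the lysyl hydroxylases Plod1, Plod2 and Plod3, and the lysyl oxidases Lox, Loxl1, Loxl2 and Loxl3. They were taken by symbol, as a named list, from the 22609 genes that every library listed, and all 10 were found. Their values played no part in how they were found in the files, but the list was chosen with earlier results of these data known. Counts of the 10 genes set beside shares of all genes are therefore a description.

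Collagen chains are made in the endoplasmic reticulum, where prolyl 4-hydroxylase, a tetramer of P4HA and P4HB subunits, hydroxylates prolines so that the triple helix is stable at body temperature. The PLOD enzymes hydroxylate lysines, and both enzyme families need iron, oxoglutarate and ascorbate. SERPINH1 binds the folded triple helix and travels with it towards the Golgi. After secretion, copper-dependent lysyl oxidases oxidise lysines of collagen and elastin, and the resulting aldehydes form the covalent crosslinks that give heart, vessel wall, kidney and liver matrix its stiffness. Fibroblasts, smooth muscle cells, pericytes and hepatic stellate cells are the usual sources of most of these proteins in such organs.

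The RNA came from 3 organs of C57BL/6J mice, the common inbred laboratory strain, all wild type. Feeding began at 4 weeks of age and lasted 21 days, either on a ketogenic diet of 90% fat, 9.7% protein and 0.3% carbohydrate or on standard chow. Each of the 6 groups (ketogenic heart, kidney and liver, and chow heart, kidney and liver) had 3 libraries that the labels call biological replicates, and the labels do not say whether organs came from the same mice. The question was how the diet changed these 10 genes in each organ and whether the organs differed.

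Library totals ran from 16135276 to 23835383 estimated counts over the 18 libraries. Each organ had high levels of its own cell type's markers (cardiomyocyte, kidney epithelium or hepatocyte genes). Ketogenic replicates 1 and 2 of heart, and likewise of liver, differed by little more than counting noise, with a median chi-square per gene of 0.665 and 0.698, where counting alone gives 0.455 and the other 16 pairs within groups gave 1.23 to 4.19. Means ± SD therefore count each of these pairs as 1 sample (n = 2 for ketogenic heart and liver, n = 3 elsewhere), and tests are given both with 3 libraries and with the pair summed where that changes a call. Chow heart replicate 3 stood apart in genes of atrium and fat: it held 47521.5 counts of the atrial light chain Myl7, where no other heart exceeded 266, and 589 counts of the adipocyte hormone Adipoq, where no other heart exceeded 6.

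RefSeq promoters (GRCm38.p6, 250 bases before to 50 after the start, 300 in all) were on hand for 5 of the 10 genes. They are shown for Serpinh1, which was lower in every organ on the ketogenic diet, for P4ha2, which was higher in kidney, and for P4ha1 and Plod3, whose diet differences were not the same in all organs. Each reads 5′ to 3′ on the gene's own strand, and capitals mark ACGTG or its reverse complement, a form of the core of the hypoxia response element. The GCGTG form was neither marked nor counted. The regions are chr7:99353190-99353489 (minus strand) for Serpinh1, chr11:54100674-54100973 (plus) for P4ha2, chr10:59323046-59323345 (plus) for P4ha1 and chr5:136986769-136987068 (plus) for Plod3.
Serpinh1: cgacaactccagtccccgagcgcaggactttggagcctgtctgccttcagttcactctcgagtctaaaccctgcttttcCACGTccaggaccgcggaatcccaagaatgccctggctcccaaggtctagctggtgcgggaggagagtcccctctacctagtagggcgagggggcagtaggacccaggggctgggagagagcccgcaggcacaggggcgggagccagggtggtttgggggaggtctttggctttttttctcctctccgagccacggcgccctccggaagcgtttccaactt
P4ha2: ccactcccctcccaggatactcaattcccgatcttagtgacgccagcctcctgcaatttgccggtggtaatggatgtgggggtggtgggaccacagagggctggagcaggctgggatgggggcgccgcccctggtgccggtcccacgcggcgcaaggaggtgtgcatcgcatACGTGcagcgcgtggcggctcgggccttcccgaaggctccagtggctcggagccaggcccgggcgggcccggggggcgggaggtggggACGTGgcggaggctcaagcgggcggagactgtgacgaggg
P4ha1: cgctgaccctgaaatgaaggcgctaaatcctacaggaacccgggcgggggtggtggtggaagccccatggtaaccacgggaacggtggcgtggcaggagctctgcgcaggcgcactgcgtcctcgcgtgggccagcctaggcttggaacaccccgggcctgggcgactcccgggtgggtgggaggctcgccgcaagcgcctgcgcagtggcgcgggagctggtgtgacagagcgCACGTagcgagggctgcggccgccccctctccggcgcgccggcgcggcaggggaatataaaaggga
Plod3: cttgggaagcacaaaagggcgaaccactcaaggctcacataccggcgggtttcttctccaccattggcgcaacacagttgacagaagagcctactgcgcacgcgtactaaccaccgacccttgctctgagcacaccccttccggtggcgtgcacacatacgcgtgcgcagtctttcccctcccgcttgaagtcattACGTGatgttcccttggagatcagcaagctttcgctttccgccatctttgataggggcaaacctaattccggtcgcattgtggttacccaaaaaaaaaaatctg

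The ACGTG core lay at position -171 from the start in Serpinh1, at -16 in P4ha1 and at -54 in Plod3, and P4ha2 had a copy on either side of its start. It was thus in 4 of the 5 promoters, and in 19.6% of the 32851 mouse promoters of the same length when both strands were searched. The E-box CACGTG, which contains that core, was in 0 of the 5 and in 7.15% of all promoters. GAANNTTC, a pair of heat shock element units, was in the Plod1 promoter alone of the 5 and in 7.86% of all. These are matches of letters in a window and do not show binding.

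Serpinh1 and Loxl2 fell on the ketogenic diet in all 3 organs. Lox was also called lower in each, but in heart and liver not with the near-identical pair summed (adjusted p = 0.111 and 0.0584 by edgeR). Among the hydroxylases, the diet's effect on Plod2, Plod3 and P4ha1 differed between organs by a test of the difference. Between heart and kidney it differed for 1 of the 10 genes (Plod2), where it did for 5.43% of all genes. Between heart and liver it differed for 2, and between kidney and liver for 3. There it differed for 32.7% and 29.2% of all genes, so these 2 counts are near or below the share of all genes. In heart 5 of the 10 genes fell (Serpinh1, Loxl2, Lox, Loxl1 and Plod1) and 0 rose, where 12.2% of the 13411 genes tested fell and 24.7% changed in either direction. In kidney 4 fell (Serpinh1, Loxl2, Lox and Plod2) and P4ha2 rose, where 5.45% of 14526 genes fell, 3.59% rose and 9.05% changed. In liver 5 fell (Serpinh1, Loxl2, Plod3, Lox and Loxl3) and 0 rose, where 23.3% of 12947 genes fell and 47.6% changed. Falling in every organ was shared by 240 of the 11872 genes tested in all 3, or 2.02%, among them Serpinh1, Loxl2 and Lox. But Lox entered the liver test only through its chow libraries, so nothing is read from its place there or among the 5 liver genes. The median log2 fold change (ketogenic over chow) of the 10 genes was −0.45 in heart, −0.44 in kidney and −0.35 in liver, beside −0.03, 0.00 and 0.00 for all genes tested. The liver median includes Lox. Under a filter of 1 CPM in 3 libraries, which Lox did not pass, the other 9 genes had a liver median of only −0.11. Changes were called by edgeR's quasi-likelihood test at a Benjamini-Hochberg adjusted p under 0.05. All 10 genes passed the filter on low counts in every organ, and in liver Lox reached the level asked for in 1 of 3 ketogenic libraries and in 3 of 3 chow libraries. In whole organs, fewer cells of a type and less RNA per cell cannot be told apart.

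**Figure D1:**
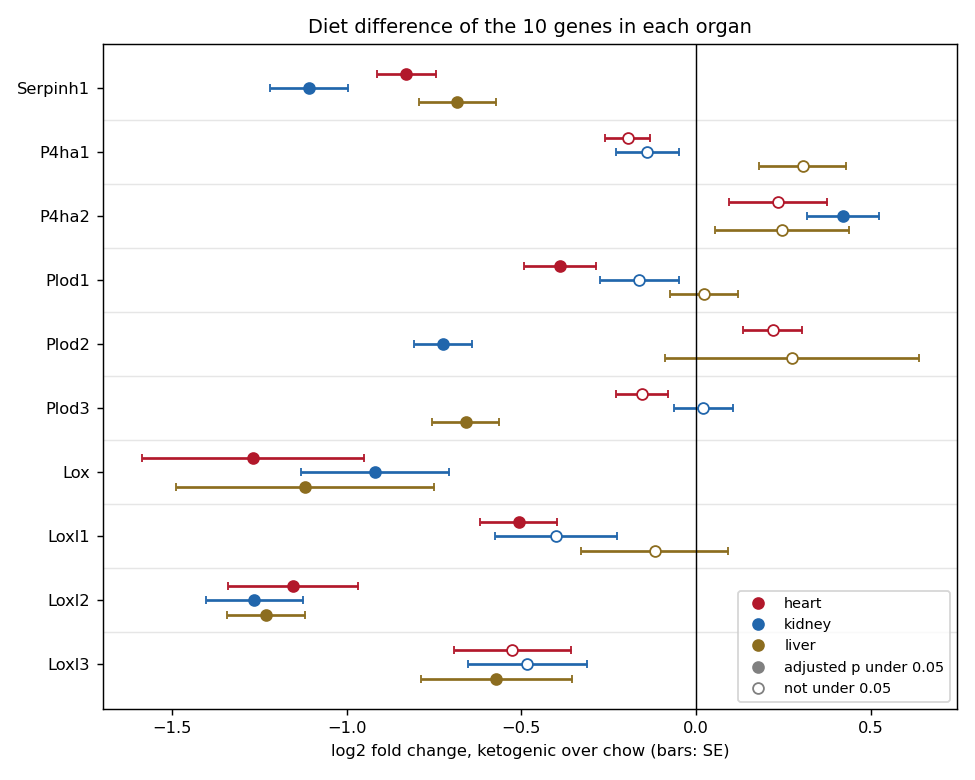
Log2 fold change, ketogenic over chow, of each of the 10 genes in heart (red), kidney (blue) and liver (brown), with SE bars. Filled points passed an adjusted p under 0.05 and open points did not. Serpinh1 and Loxl2 have filled points left of 0 in every organ. Lox does too, but its heart and liver calls are lost with the near-identical pair summed. Lox entered the liver test only through its chow libraries, so nothing is read from its liver point. The hydroxylases lie on both sides of 0.

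With each near-identical pair summed, 2 of the 10 genes were called in heart (Serpinh1 and Loxl2), where 5.81% of all genes fell and 12.1% changed. Then 3 were called in liver (Serpinh1, Loxl2 and Plod3), where 17.6% of all genes fell and 36.8% changed. Of the 15 changes called, 8 held when any single library was left out: Serpinh1 and Loxl2 in each organ, Plod2 in kidney and Plod3 in liver. Libraries of the diets did not overlap, with ketogenic lower, for 8 genes in heart, 5 in kidney and 5 in liver, where 22.7%, 16.4% and 28.1% of all genes showed that. The 5 in liver include Lox, from which nothing is read there because it was tested only through its chow libraries. Ketogenic was higher without overlap for 1 gene in each organ, where 22.0%, 15.0% and 29.1% of all genes showed that.

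Serpinh1 (mm9 chromosome 7, 106493885 to 106501749, minus strand) encodes the collagen-specific chaperone of the endoplasmic reticulum. In heart it stood at 297, 283 and 309.6 CPM (a library's count relative to its scaled size) in the 3 ketogenic libraries, against 568, 529.5 and 483 CPM in the 3 chow libraries. Every ketogenic heart was below every chow heart. The log2 fold change was −0.83 (SE 0.08, edgeR quasi-likelihood adjusted p = 0.000426), which is 0.563 of the chow level.

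In kidney Serpinh1 had 108, 105 and 120.1 CPM on the ketogenic diet, against 276, 234 and 209 CPM on chow. The groups lay far apart here too, and the log2 fold change was −1.11 (SE 0.11, edgeR adjusted p = 0.0015). In liver, where the gene was lowest, ketogenic libraries held 15.1, 14.8 and 12.7 CPM, against 25.1, 23.3 and 20.2 CPM in chow libraries. They did not overlap, and the log2 fold change was −0.68 (SE 0.11, edgeR adjusted p = 0.000441). With the near-identical pair summed, the adjusted p by edgeR was 0.007 in heart and 0.00164 in liver.

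Loxl2 (mm9 chromosome 14, 70009283 to 70095641, plus strand) encodes a lysyl oxidase that crosslinks basement membrane collagen IV as well as fibrillar collagen. Ketogenic hearts held 49.5, 51.2 and 48.6 CPM, against 121, 133 and 79.0 CPM in chow hearts. The ketogenic values were close together and all below the lowest chow value, that of replicate 3, the library with atrial and fat genes. Its log2 fold change was −1.15 (SE 0.19, edgeR quasi-likelihood adjusted p = 0.00678), or −1.34 without that chow library.

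In kidney Loxl2 had 37.8, 25.9 and 35.3 CPM on the ketogenic diet, against 86.8, 72.6 and 78.8 CPM on chow. In liver it had 7.78, 7.21 and 8.68 CPM on the ketogenic diet, against 17.4, 18.2 and 20.0 CPM on chow. Neither organ showed any overlap. The log2 fold changes were −1.26 in kidney (SE 0.14, edgeR adjusted p = 0.00227) and −1.23 in liver (SE 0.11, edgeR adjusted p = 7.57e-06), so that the level was between 0.416 and 0.45 of chow in the 3 organs. With the pair summed, the adjusted p by edgeR was 0.0349 in heart and 5.67e-05 in liver.

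Lox (mm9 chromosome 18, 52676892 to 52689362, minus strand) encodes the founding lysyl oxidase, which crosslinks both collagen and elastin. In heart it had 5.16, 5.54 and 8.65 CPM on the ketogenic diet, against 12.1, 11.9 and 22.3 CPM on chow. Chow replicate 3 was the highest by far, and no ketogenic library reached any chow library. The log2 fold change was −1.27 (SE 0.32, edgeR quasi-likelihood adjusted p = 0.0301). The call was lost with the pair summed (adjusted p = 0.111), without ketogenic replicate 1 (adjusted p = 0.11) and without ketogenic replicate 2 (adjusted p = 0.117), all by edgeR. Without chow replicate 3 the log2 fold change was −0.90 and the adjusted p by edgeR 0.00245.

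In kidney Lox had 9.43, 5.62 and 8.84 CPM on the ketogenic diet, against 18.4, 13.0 and 14.0 CPM on chow. The groups did not overlap, and the log2 fold change was −0.92 (SE 0.21, edgeR quasi-likelihood adjusted p = 0.032). That call was fragile: without ketogenic replicates 2 or 3 the adjusted p by edgeR was 0.0689 or 0.0744, and without chow replicates 1, 2 or 3 it was 0.134, 0.0588 or 0.0914.

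Lox was near the detection limit in liver and entered the test there only through its chow libraries. Its counts there were 9, 7 and 10 in ketogenic libraries, against 27, 16 and 24 in chow libraries, which is 0.449, 0.368 and 0.539 CPM against 1.22, 0.671 and 1.08 CPM. The ketogenic livers lay below the chow livers without overlap, at a log2 fold change of −1.12 (SE 0.37, edgeR quasi-likelihood adjusted p = 0.0266). It was lost with the pair summed (adjusted p = 0.0584) and without ketogenic replicate 1 (0.0763), ketogenic replicate 2 (0.0947), chow replicate 1 (0.0908) or chow replicate 3 (0.0716), by edgeR, and DESeq2 gave an adjusted p of 0.0824.

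Loxl1 (mm9 chromosome 9, 58135530 to 58161019, minus strand) encodes the lysyl oxidase that is tied to elastic fibre assembly. It fell in heart, with 77.3, 73.6 and 71.2 CPM on the ketogenic diet, against 90.0, 102 and 124 CPM on chow. Ketogenic hearts were tightly grouped below all chow hearts, at a log2 fold change of −0.51 (SE 0.11, edgeR quasi-likelihood adjusted p = 0.0125). The adjusted p by edgeR was 0.0517 with the pair summed, 0.0582 without ketogenic replicate 2 and 0.056 without ketogenic replicate 3. In kidney and liver the diets overlapped. Kidney libraries had 22.9, 26.7 and 36.9 CPM on the ketogenic diet, against 40.7, 40.3 and 33.5 CPM on chow (log2 fold change −0.40, SE 0.17, edgeR adjusted p = 0.191). This became −0.62 with an adjusted p by edgeR of 0.026 without ketogenic replicate 3. Liver libraries had 3.29, 2.37 and 2.80 CPM on the ketogenic diet, against 3.31, 2.43 and 3.47 CPM on chow (log2 fold change −0.12, SE 0.21, edgeR adjusted p = 0.672).

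Loxl3 (mm9 chromosome 6, 82984218 to 83002558, plus strand), the lowest of the lysyl oxidases in heart and kidney, had log2 fold changes between −0.57 and −0.48 and sat at the edge of the test. In heart it had 6.58, 5.31 and 4.55 CPM on the ketogenic diet, against 7.21, 8.07 and 8.45 CPM on chow. These did not overlap, yet the adjusted p was 0.0501 by edgeR's quasi-likelihood test (log2 fold change −0.53, SE 0.17), and it was 0.0469 without ketogenic replicate 1 and 0.0485 without chow replicate 3. Kidney held 4.50, 4.38 and 5.54 CPM on the ketogenic diet, against 7.17, 7.20 and 5.84 CPM on chow, again without overlap (log2 fold change −0.48, SE 0.17, edgeR adjusted p = 0.113). In liver the gene fell, with 1.99, 1.68 and 1.46 CPM on the ketogenic diet, against 2.31, 2.81 and 2.53 CPM on chow. The liver log2 fold change was −0.57 (SE 0.22, edgeR adjusted p = 0.0477), and that call was lost with the pair summed (0.0773) and without any single library (0.0524 to 0.126). Loxl3 has exons that overlap Htra2 on the opposite strand, and the counting used strand.

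**Figure D2:**
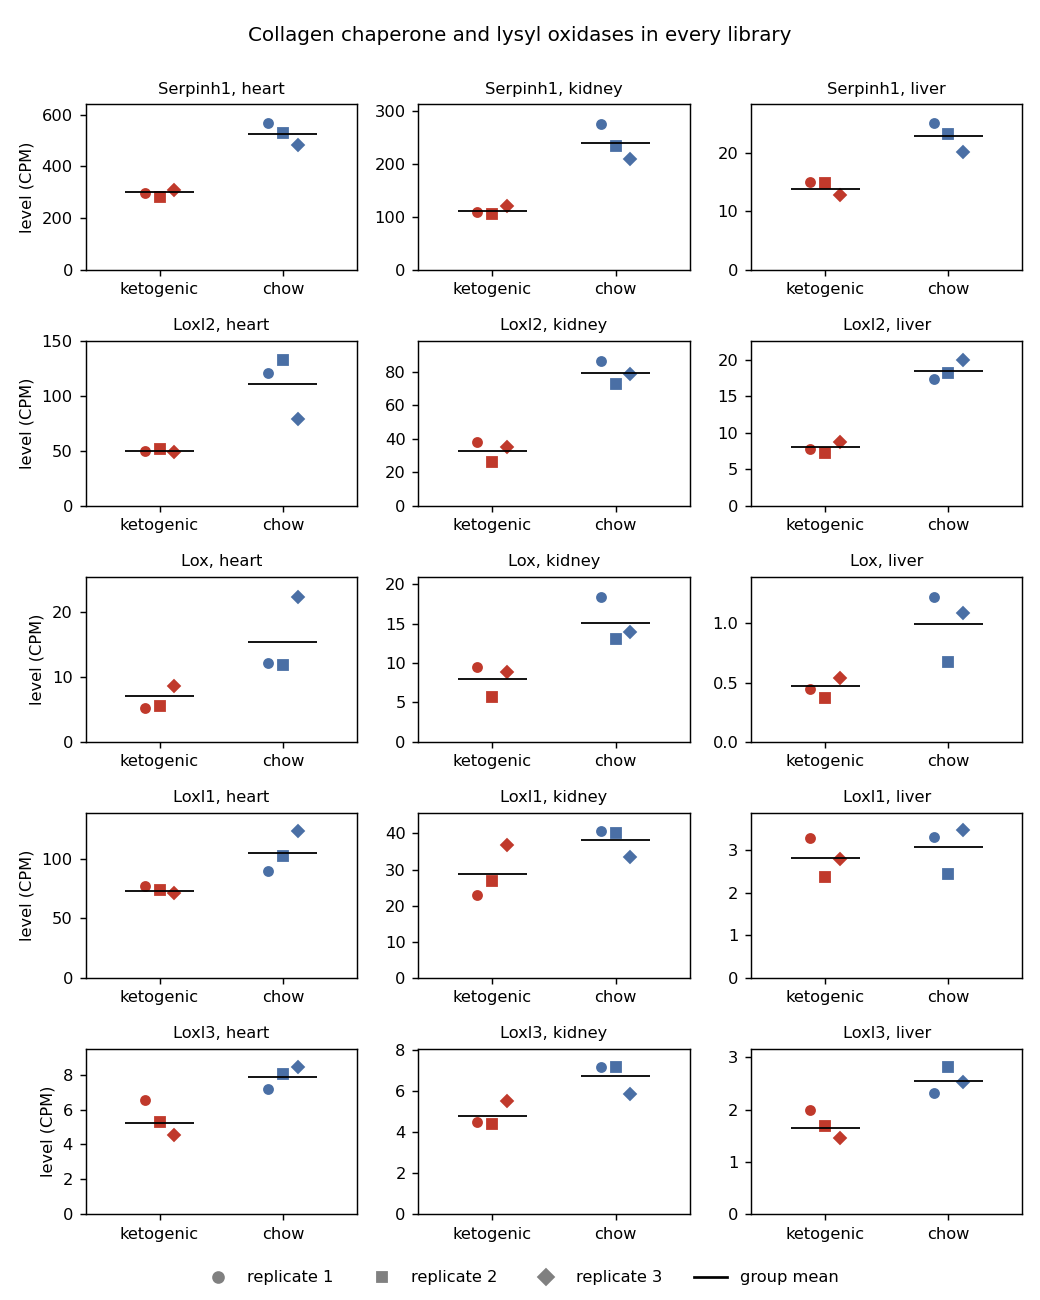
Level in CPM of Serpinh1 and of the lysyl oxidases Lox, Loxl1, Loxl2 and Loxl3 in each library of heart, kidney and liver, ketogenic (red) left of chow (blue). Marker shapes give the replicate number and lines the group mean, in which the near-identical ketogenic replicates 1 and 2 of heart and liver count as 1. For Serpinh1 and Loxl2 every ketogenic point lies below every chow point of the same organ, as for Lox in heart and kidney. Nothing is read from Lox in liver, where it was tested only through its chow libraries.

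Among the lysyl hydroxylases, Plod2 fell in kidney, Plod3 in liver and Plod1 in heart, the last not with the pair summed. Plod2 (mm9 chromosome 9, 92437061 to 92503265, plus strand) encodes the enzyme that hydroxylates telopeptide lysines, which sets the type of crosslink. In kidney it had 42.7, 43.6 and 39.4 CPM on the ketogenic diet, against 74.0, 70.3 and 63.3 CPM on chow. Both groups were tight and far apart, at 0.605 of the chow level (log2 fold change −0.73, SE 0.08, edgeR quasi-likelihood adjusted p = 0.00217).

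In heart Plod2 did not pass, with 38.0, 37.6 and 45.0 CPM on the ketogenic diet, against 34.7, 34.1 and 34.7 CPM on chow. Ketogenic libraries were all above chow libraries, and the log2 fold change was 0.22 (SE 0.08, edgeR adjusted p = 0.0881). Liver barely expressed it, with 37, 19 and 14 counts in ketogenic libraries, against 16, 26 and 26 counts in chow libraries. Those overlapped, and the log2 fold change was 0.27 (SE 0.36, edgeR adjusted p = 0.563).

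Plod3 (mm9 chromosome 5, 137462889 to 137472516, plus strand) encodes a lysyl hydroxylase that can also glycosylate hydroxylysine. It fell in liver, with 20.5, 17.6 and 20.3 CPM on the ketogenic diet, against 33.2, 29.0 and 30.1 CPM on chow. The groups were well apart, at 0.633 of the chow level (log2 fold change −0.66, SE 0.10, edgeR quasi-likelihood adjusted p = 0.00022, and 0.000987 with the pair summed). Heart had 44.5, 39.9 and 38.4 CPM on the ketogenic diet, against 45.2, 45.6 and 45.9 CPM on chow (log2 fold change −0.15, SE 0.07, edgeR adjusted p = 0.156). In kidney the level was 41.6 ± 3.9 CPM on the ketogenic diet and 41.1 ± 1.25 CPM on chow (SD, n = 3 each), and the diets overlapped (log2 fold change 0.02, SE 0.08, edgeR adjusted p = 0.906). The microRNA gene Mir702 overlaps Plod3 exons on the same strand, and no count of the 10 genes had a fractional part above 0.178% of the count.

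Plod1 (mm9 chromosome 4, 147283862 to 147310885, minus strand) encodes the enzyme that hydroxylates lysines of the helix. It fell in heart, with 136, 128 and 126 CPM on the ketogenic diet, against 181, 188 and 143 CPM on chow. No libraries overlapped, and chow replicate 3 lay closest to the ketogenic hearts (log2 fold change −0.39, SE 0.10, edgeR quasi-likelihood adjusted p = 0.0263). The adjusted p by edgeR was 0.0847 with the pair summed, 0.0747, 0.101 and 0.0909 without ketogenic replicates 1, 2 and 3, and 0.0752 and 0.0996 without chow replicates 1 and 2. Without chow replicate 3 it was 2.16e-05. Plod1 averaged 54.4 ± 6.14 CPM in ketogenic kidneys and 60.9 ± 7.77 CPM in chow kidneys (SD, n = 3 each), with overlap (log2 fold change −0.16, SE 0.11, edgeR adjusted p = 0.394). Livers had 65.4, 61.1 and 62.0 CPM on the ketogenic diet, against 71.7, 57.4 and 56.4 CPM on chow (log2 fold change 0.02, SE 0.10, edgeR adjusted p = 0.869).

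Neither prolyl hydroxylase subunit passed as lower in any organ. P4ha2 (mm9 chromosome 11, 53914426 to 53945169, plus strand) was the only one of the 10 genes called higher anywhere: kidney held 24.5, 22.8 and 28.4 CPM on the ketogenic diet, against 19.6, 17.8 and 19.3 CPM on chow. Ketogenic kidneys were all above chow kidneys, at 1.34 times the chow level (log2 fold change 0.42, SE 0.10, edgeR quasi-likelihood adjusted p = 0.0388). The adjusted p by edgeR rose to 0.0547 and 0.123 without ketogenic replicates 2 and 3, to 0.117, 0.115 and 0.116 without chow replicates 1, 2 and 3, and to 0.0846 with total-count scaling.

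P4ha2 was also nominally higher in the other organs, with overlap. Hearts had 40.1, 34.5 and 41.5 CPM on the ketogenic diet, against 35.5, 37.3 and 26.1 CPM on chow (log2 fold change 0.23, SE 0.14, edgeR adjusted p = 0.25). Livers averaged 3.43 ± 0.346 CPM on the ketogenic diet (SD, n = 2) and 2.96 ± 0.478 CPM on chow (SD, n = 3), at a log2 fold change of 0.25 (SE 0.19, edgeR adjusted p = 0.312).

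P4ha1 (mm9 chromosome 10, 58786044 to 58836052, plus strand), the catalytic subunit with the wider tissue distribution, passed in no organ. Heart had 50.4, 49.4 and 47.7 CPM on the ketogenic diet, against 56.1, 58.6 and 54.4 CPM on chow, lower without overlap (log2 fold change −0.20, SE 0.06, edgeR quasi-likelihood adjusted p = 0.0572, and 0.0266 without chow replicate 3). Liver had 11.2, 13.4 and 15.4 CPM on the ketogenic diet, against 10.3, 10.9 and 11.1 CPM on chow, higher without overlap (log2 fold change 0.31, SE 0.13, edgeR adjusted p = 0.0645, and 0.025 without ketogenic replicate 1). Ketogenic liver replicate 1 was barely above the chow livers. Kidney averaged 57.5 ± 5.51 CPM on the ketogenic diet and 63.4 ± 4.23 CPM on chow (SD, n = 3 each), with overlap (log2 fold change −0.14, SE 0.09, edgeR adjusted p = 0.364).

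**Figure D3:**
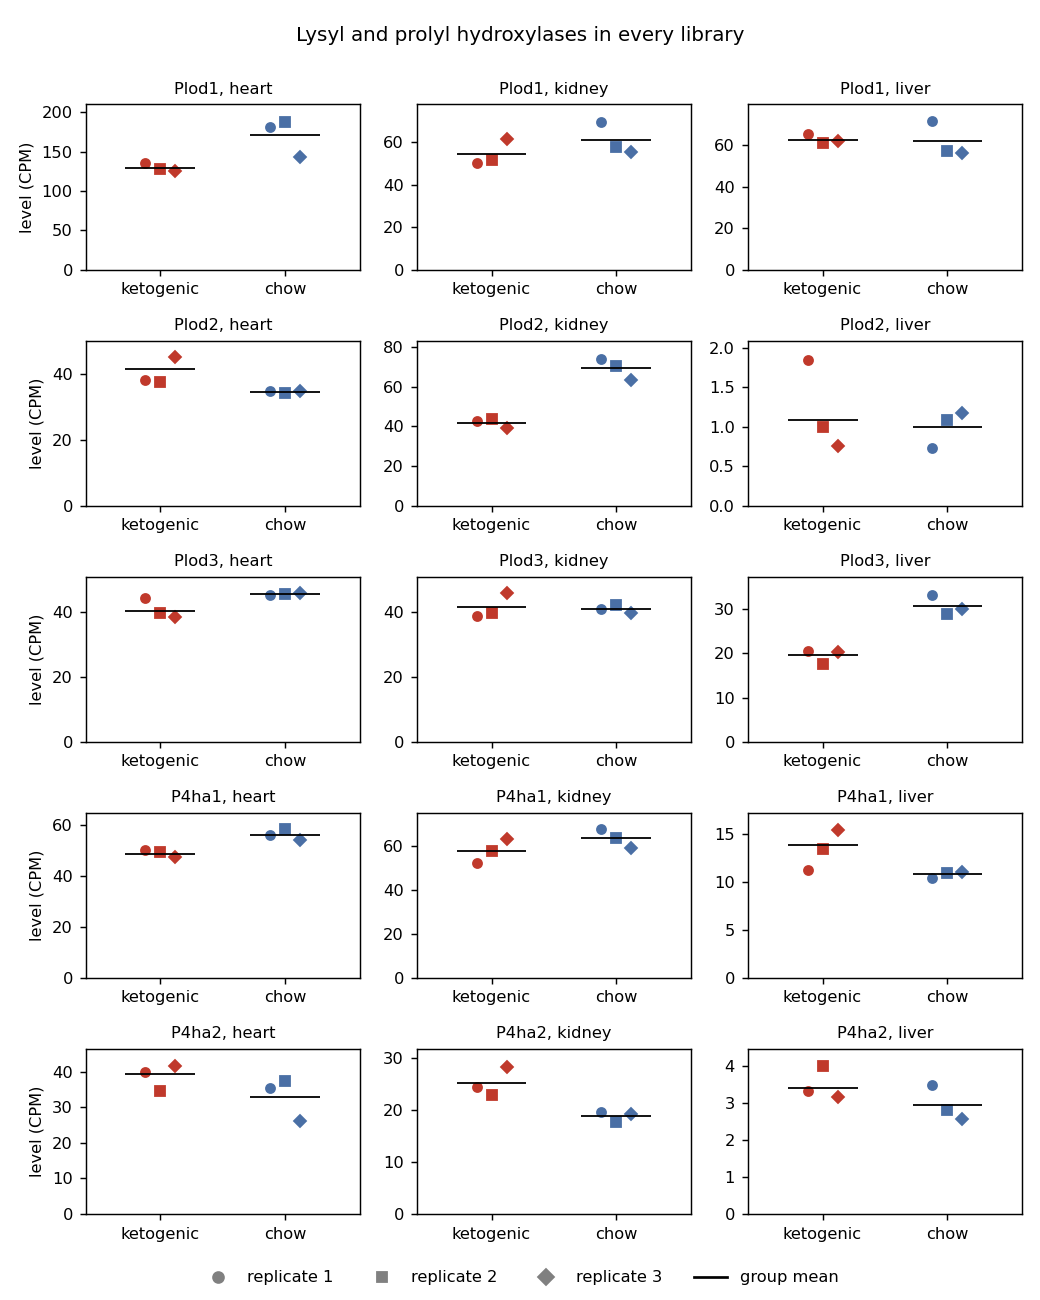
Level in CPM of the lysyl hydroxylases Plod1, Plod2 and Plod3 and of the prolyl hydroxylase subunits P4ha1 and P4ha2 in each library, ketogenic (red) left of chow (blue), with marker shapes for the replicate number. Lines are group means, with ketogenic replicates 1 and 2 of heart and liver counted as 1. Plod2 separates by diet in kidney at 42.7, 43.6 and 39.4 against 74.0, 70.3 and 63.3 CPM, and Plod3 in liver.

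The diet's effect was compared between organs in 1 model of all libraries, as a difference of log2 fold changes over 15495 genes. Of 30 such differences (10 genes, 3 pairs of organs), 6 passed an adjusted p under 0.05, and all 6 concerned hydroxylases. Heart minus kidney gave 1 above 0, where 5.43% of all genes passed (2.66% above 0 and 2.78% below). Heart minus liver gave 1 above and 1 below, where 32.7% of all genes passed (16.7% above and 16.0% below). Kidney minus liver gave 1 above and 2 below, where 29.2% of all genes passed (16.3% above and 13.0% below). The same number, 6, passed with the pair summed. Among the other 24, which include all those of Serpinh1 and the lysyl oxidases, the lowest adjusted p by edgeR was 0.0812.

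Plod2 differed between heart and kidney by 0.93 on the log2 scale (SE 0.19, edgeR quasi-likelihood adjusted p = 0.0085), heart being the higher, and by −0.96 between kidney and liver (SE 0.30, adjusted p = 0.0208). The kidney minus liver difference of Plod2 rested on few liver counts: without ketogenic liver replicate 1 it was −0.49 (adjusted p = 0.266 by edgeR), and without chow liver replicate 1 its adjusted p by edgeR was 0.0735. Plod3 fell further in liver than in the other organs, by 0.54 from heart (SE 0.12, edgeR adjusted p = 0.00278) and by 0.72 from kidney (SE 0.12, edgeR adjusted p = 0.000359). Leaving out any single library kept all these Plod3 differences. The P4ha1 difference was −0.47 for heart minus liver (SE 0.14, edgeR adjusted p = 0.0163), and 0.0654 without ketogenic liver replicate 3. For kidney minus liver it was −0.40 (SE 0.14, edgeR adjusted p = 0.0398). That P4ha1 difference was lost without ketogenic kidney replicate 1 (0.0885) or 2 (0.069), ketogenic liver replicate 2 (0.0792) or 3 (0.122), chow kidney replicate 1 (0.0977) or 2 (0.0694), or chow liver replicate 1 (0.0893), 2 (0.0655) or 3 (0.0565). Differences that involve the same organ share its libraries.

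Per length of gene, in RPKM (counts scaled to gene length and library size over the 18 libraries), Serpinh1 was the highest of the 10 in heart and kidney. It averaged 120.4 RPKM in ketogenic hearts (n = 2) and 211 RPKM in chow hearts (n = 3), and 34.0 RPKM in ketogenic kidneys and 72.5 RPKM in chow kidneys (n = 3 each). Its range did not meet that of Plod1, the next in order, in any of these groups. Plod1 led in liver, at 26.2 ± 0.517 RPKM on the ketogenic diet and 26.3 ± 3.65 RPKM on chow (SD), followed by Plod3 and Serpinh1, whose ranges overlapped on either diet. Below Plod1, heart ran Loxl1, P4ha2, Plod3, P4ha1, Plod2, Loxl2, Lox and Loxl3 on the ketogenic diet, with overlapping ranges from Plod3 to P4ha1 to Plod2 and between Lox and Loxl3. On chow it ran Loxl1, Loxl2, P4ha2, P4ha1, Plod3, Plod2, Lox and Loxl3, with overlapping ranges from Loxl2 to Plod3. Loxl2 was thus the eighth of the 10 in ketogenic hearts, at 9.37 RPKM, and the fourth in chow hearts, at 20.9 RPKM.

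Kidney held 7 of the genes (P4ha1, Plod3, Plod2, P4ha2, Loxl1, Loxl2 and Lox) between 1.65 RPKM and 10.6 RPKM on the ketogenic diet, many with overlapping neighbours. On chow the same genes averaged from 3.10 RPKM (Lox) to 13.8 RPKM (Plod2), and Plod2 and Plod1 overlapped. Loxl3 was last in kidney, at 0.888 RPKM on the ketogenic diet and 1.23 RPKM on chow, and last in heart, at 1.27 RPKM on the ketogenic diet and 1.91 RPKM on chow. In liver the last places were held by Plod2, at 0.399 RPKM on the ketogenic diet and 0.371 RPKM on chow, and Lox, at 0.179 RPKM on the ketogenic diet and 0.381 RPKM on chow. Plod2 in kidney was 8.44 RPKM on the ketogenic diet and 13.8 RPKM on chow, and its liver range lay below those of both other organs.

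**Figure D4:**
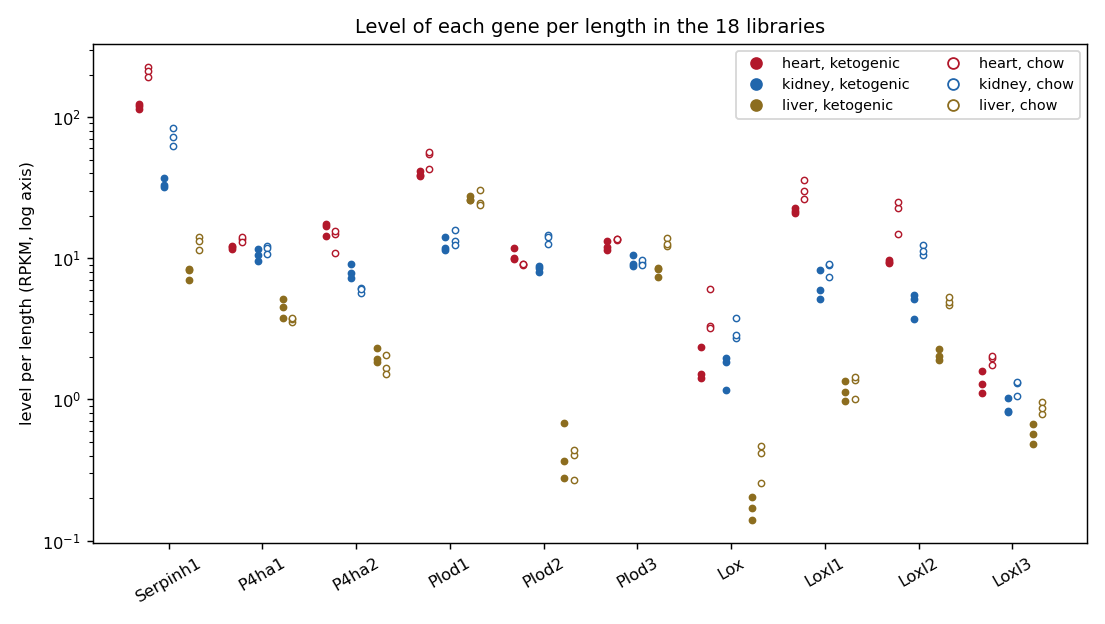
Level per gene length (RPKM, log axis) of the 10 genes in the 18 libraries, heart (red), kidney (blue) and liver (brown), with filled points for ketogenic and open points for chow libraries. Serpinh1 is the highest in heart and kidney, Plod1 in liver, and Plod2 and Lox fall below 1 RPKM in liver only.

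Genes of the proteins these enzymes act on had lower medians than the 10 genes. Of 11 collagen and elastin genes, all 11 fell in heart, 9 in kidney and 11 in liver, with median log2 fold changes of −1.25, −1.29 and −1.51. Among all genes tested, 12.2% fell in heart, 5.45% in kidney and 23.3% in liver. Col3a1, the fibrillar collagen of elastic tissues, averaged 384 ± 52.6 CPM in ketogenic hearts (SD, n = 2) and 1472 ± 295 CPM in chow hearts (SD, n = 3), a log2 fold change of −1.89 (edgeR adjusted p = 0.000196). Serpinh1 in the same hearts changed by −0.83. With the pair summed, 8 of the 11 substrates fell in heart and 11 in liver, where 5.81% and 17.6% of all genes fell.

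Of 21 other collagen synthesis genes tested in heart, 9 fell and 3 rose, with a median log2 fold change of −0.33. Among all genes tested in heart, 12.2% fell and 12.5% rose. The 4 with the smallest adjusted p there were Bmp1 (−0.79, the procollagen C-proteinase), Ppib (−0.69, a prolyl isomerase that works with prolyl 3-hydroxylase), Pcolce (−0.74, the enhancer of Bmp1) and Fkbp10 (0.67, a prolyl isomerase that acts with Plod2). Fkbp10 averaged 59.7 ± 1.73 CPM in ketogenic hearts and 37.6 ± 4.29 CPM in chow hearts (SD), and 7.22 ± 2.02 CPM in ketogenic kidneys and 14.4 ± 3.45 CPM in chow kidneys. It rose in heart and fell in kidney (kidney log2 fold change −0.99, edgeR adjusted p = 0.0346). Plod2 had log2 fold changes of 0.22 in heart, where it was not called (edgeR adjusted p = 0.0881), and −0.73 in kidney. In liver their signs were opposite and neither was called. The log2 fold change there was −0.25 for Fkbp10 (edgeR adjusted p = 0.492) and 0.27 for Plod2 (0.563). A link between Plod2 and Fkbp10 was not tested.

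In kidney 6 of the 21 fell and 0 rose (median −0.30), led by Pcolce (−0.69), Lepre1 (−0.57, a prolyl 3-hydroxylase), Adamts14 (−0.81, a procollagen N-proteinase) and Bmp1 (−0.67). In liver 8 of 20 fell and 1 rose (median −0.24), led by Adamts2 (−1.18, a procollagen N-proteinase), Tgm2 (−0.86, a transglutaminase that also crosslinks matrix), Lepre1 (−0.97) and Bmp1 (−0.49). Among all genes tested, 5.45% fell and 3.59% rose in kidney, and 23.3% fell and 24.3% rose in liver. With the pair summed, 5 genes of the list fell and 3 rose in heart, and 7 fell and 0 rose in liver. Then 5.81% of all genes fell in heart and 17.6% in liver. Bmp1, Pcolce, Ppib and Lepre1 fell in all 3 organs, as did Serpinh1 and 2.02% of the genes tested in all 3. Lepre1 in heart had an adjusted p of 0.112 by edgeR with the pair summed. P4hb, the disulfide isomerase that forms the other subunit of prolyl 4-hydroxylase, was named after its values were seen: its log2 fold change was −0.44 in heart (adjusted p = 0.00547 by edgeR), 0.01 in kidney (0.972) and 0.31 in liver (0.0431, and 0.122 with the pair summed).

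**Figure D5:**
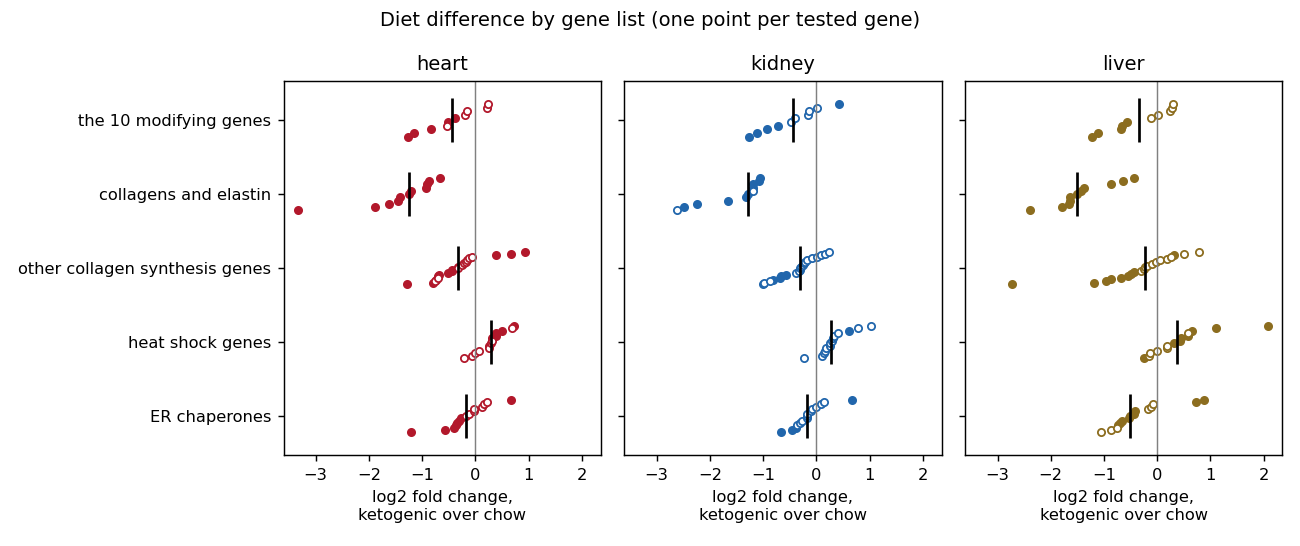
Log2 fold change, ketogenic over chow, of each tested gene of 5 lists in heart, kidney and liver. Filled points passed an adjusted p under 0.05, open points did not, and black bars mark the median of a list. The medians of collagens and elastin (−1.25, −1.29 and −1.51) lie further left than those of the 10 modifying genes (−0.45, −0.44 and −0.35), and heat shock genes lie to the right. The liver median of the modifying genes includes Lox. It was −0.11 for the other 9 under a filter of 1 CPM in 3 libraries.

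SERPINH1 is also a heat shock protein by family, and its gene can be driven by heat shock factor, a link that was not tested here. Of 14 heat shock genes tested, 6 rose and 0 fell in heart, where 12.5% of all genes rose and 12.2% fell. In kidney 1 rose and 0 fell, where 3.59% of all genes rose and 5.45% fell. In liver 7 rose and 1 fell, where 24.3% of all genes rose and 23.3% fell. The medians of the heat shock genes were 0.30, 0.28 and 0.38 in heart, kidney and liver. Rises numbered 2 in heart and 7 in liver with the pair summed. Hsph1, which disaggregates misfolded protein, rose in kidney (0.62) and liver (0.57), and in heart (0.32) was called only with 3 libraries (adjusted p = 0.0231 by edgeR, and 0.0768 with the pair summed). General chaperones of the endoplasmic reticulum were lower by their medians, −0.17 in heart, −0.18 in kidney and −0.50 in liver. Of 15, 7 fell and 1 rose in heart, 3 fell and 1 rose in kidney, and 7 fell and 2 rose in liver. Among all genes, 12.2%, 5.45% and 23.3% fell. Summing the pair gave 6 down and 1 up in heart, and 3 down and 2 up in liver. With the pair summed, 5.81% of all genes fell in heart and 17.6% in liver. Against the list's medians, Herpud1, a stress-induced degradation factor, rose in all 3 organs (0.67, 0.68 and 0.73) in the libraries where Serpinh1 fell.

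P4ha1, P4ha2, Plod2, Lox and Loxl2 are known hypoxia-inducible genes, and a part of hypoxia signalling in their levels was not tested. Of other hypoxia targets, 4 of 14 rose and 3 fell in heart, 0 of 15 changed in kidney, and 4 of 13 rose and 2 fell in liver. Among all genes, 12.5% rose and 12.2% fell in heart, 9.05% changed in kidney, and 24.3% rose and 23.3% fell in liver. Summing the pair left 2 up and 2 down in heart, and 2 up and 2 down in liver. In kidney, the organ where Plod2 fell and P4ha2 rose, the list's median log2 fold change was 0.11. Of the genes that supply ascorbate and copper, 1 of 4 fell in heart, 0 of 7 changed in kidney, and 3 of 8 fell and 1 rose in liver (2 fell and 1 rose with the pair summed). These counts stand beside the same shares of all genes. Atox1, a copper chaperone, fell in heart (−0.48) and rose in liver (0.87). Gulo, which makes the last step of ascorbate synthesis in mouse liver, had a log2 fold change of −0.28 there, and Slc23a1, an ascorbate transporter, one of −0.49.

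Markers of the cell types that make collagen, and of macrophages, adipocytes and dividing cells, were read beside these results. Among all genes tested, 12.2% fell and 12.5% rose in heart, and 5.45% fell and 3.59% rose in kidney. The liver shares were 23.3% and 24.3%. With the pair summed, 5.81% of all genes fell in heart and 17.6% in liver. In heart, 5 of 10 fibroblast markers fell (summed level 2398 to 2695 CPM in ketogenic libraries, 2458 to 4184 CPM in chow libraries), as did 2 of 8 smooth muscle and pericyte markers (439 to 656 CPM, against 994 to 1042 CPM on chow) and 8 of 8 macrophage markers (344 to 354 CPM, against 560 to 640 CPM on chow). In kidney, 2 of 10 fibroblast markers fell (437 to 614 CPM, against 599 to 729 CPM on chow), 1 of 8 smooth muscle and pericyte markers fell (296 to 334 CPM, against 380 to 701 CPM on chow) and 0 of 8 macrophage markers changed. In liver, 4 of 9 fibroblast markers rose and 1 fell (180 to 217 CPM, against 139 to 159 CPM on chow), 4 of 5 smooth muscle and pericyte markers fell (25.2 to 28.6 CPM, against 35.6 to 43.4 CPM on chow), and 2 of 9 stellate cell markers rose and 1 fell (434 to 449 CPM, against 426 to 474 CPM on chow). Of the 8 macrophage markers, 2 rose and 0 fell in liver (338 to 527 CPM, against 340 to 398 CPM on chow), or 1 with the pair summed. None of the markers tested was at 0; Cnn1, Cspg4 and Lmod1 of the smooth muscle list and Pi16 of the fibroblast list were too low to test in liver. With the pair summed, 4 fibroblast, 0 smooth muscle and 7 macrophage markers fell in heart, and 1 smooth muscle marker fell in liver. Adipocyte markers summed to 17.1 to 268 CPM in ketogenic kidneys and 5.99 to 89.2 CPM in chow kidneys, with 0 of 7 called. Genes of dividing cells fell in heart (9 of 10), kidney (10 of 10) and liver (10 of 10), alongside Serpinh1 and Loxl2, and with the pair summed 6 fell in heart and 10 in liver. Cenpf, the other heart gene, was higher there without overlap but not called (log2 fold change 1.17, edgeR adjusted p = 0.0691). The list's summed level overlapped in heart, at 69.0 to 146 CPM against 90.9 to 199 CPM on chow. It did not in kidney (15.0 to 48.2 against 146 to 221 CPM) or liver (7.71 to 13.4 against 124 to 181 CPM). The part that any of these plays in the levels of the 10 genes was not tested.

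Across the 18 libraries, with each gene centred on its organ mean, the genes most like each of the 10 were named by Pearson correlation of log2 CPM among 9114 genes, as a description. The points share diets and libraries. Serpinh1 was nearest to Sparc (r = 0.982), which encodes a collagen-binding matrix protein, Col3a1 (0.959) and Ostc (0.957). Loxl2 was nearest to Col5a1 (0.960), Col4a1 (0.960) and Sparc (0.959). Plod3, in contrast, was nearest to D4Ertd22e (0.956), Ganab (0.953) and 2310044H10Rik (0.951), and Loxl1 to Islr (0.897), Fzd1 (0.809) and Mettl11a (0.806). The nearest gene was Rnpep (0.834) for Plod1, Actg1 (0.813) for P4ha1 and Pdss2 (0.835) for P4ha2. Lox, Loxl3 and Plod2 were below the level asked for in at least 1 organ and were given none.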

How the data were processed

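Total RNA from 18 mouse organ libraries was sequenced as stranded mRNA, with an RNA integrity number above 4, per the labels' protocols. The submitters' processing notes name HISAT2 2.1.0, SAMtools, bcl2fastq and featureCounts 1.5.0. Per the file headers, the authors counted read pairs with featureCounts on mm9 exons, by strand, with multi-mapping and overlapping reads as fractions, so the deposited values are estimated counts. Non-whole genes made up 46.2 to 72.1% of a library's count, but the 10 genes were almost whole. Counts were rounded here, which changed totals by at most 0.00087%.

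For each organ, 3 ketogenic and 3 chow libraries were fitted with edgeR 4.0.16 (R 4.3.3, quasi-likelihood test, filterByExpr, TMM), with Benjamini-Hochberg adjustment over all genes tested. Log2 fold changes are ketogenic over chow, and SE is the log2 fold change divided by the square root of F. Organ differences are contrasts in 1 model of 18 libraries. CPM are counts relative to the TMM-scaled library size within an organ, and RPKM are relative to that size over all libraries and to exon length. The p-values measure the spread between these libraries.

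All 10 genes are named in every organ. Other lists are given by counts, naming at most 4 genes per list and organ with the smallest adjusted p (and the same genes in other organs), and the 3 most correlated genes per member with a mean log2 CPM of at least 2. Myl7, Adipoq, P4hb and Cenpf were chosen after their values were seen. The members and lists were chosen with earlier results of these data known. Alternatives were DESeq2 1.42.0, RLE and total-count scaling, no filter, a CPM of 1 in 3 libraries, a replicate block, all 18 libraries together, summing the near-identical pairs, and leaving out each library. The steps were tested on simulated data. Promoters are RefSeq's (GRCm38.p6), and coordinates of genes are those of the files (mm9). Protein sequences were not used here, and some results are not reported here.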

Additional observations from a re-analysis of the deposited data

Results flagged for a closer look

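The diet's effect on 3 hydroxylase genes differed between organs by a test of the difference itself, edgeR's quasi-likelihood contrast over 15495 genes. All values are differences of log2 fold changes, ketogenic over chow. Plod2, the telopeptide lysyl hydroxylase, differed by 0.9335 for heart minus kidney and by −0.9611 for kidney minus liver. Plod3, the lysyl hydroxylase with glycosyltransferase activity, differed by 0.5372 for heart minus liver and by 0.7227 for kidney minus liver. P4ha1, the prolyl 4-hydroxylase subunit, differed by −0.4693 for heart minus liver and by −0.4015 for kidney minus liver, though it passed in no organ alone. Heart minus kidney gave 1 of the 10 genes, where 5.43% of all genes passed. Heart minus liver gave 2, where 32.7% passed, and kidney minus liver 3, where 29.2% passed. With a library left out, the adjusted p by edgeR reached 0.266 for Plod2 in kidney minus liver. For P4ha1 it reached 0.0654 in heart minus liver and 0.122 in kidney minus liver.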

How the results depend on the processing

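No called change of the 10 genes turned its direction under any alternative run. In heart, 5 genes were called as given, 8 with total-count scaling, 2 with ketogenic replicates 1 and 2 summed, and 2 to 7 when each library was left out. Over all genes heart gave 3317, 1642 with the pair summed, and 1583 to 4689 with a library left out. Total-count scaling moved the median of all heart genes to −0.16, and 23.4% of its calls were higher, against 50.5% as given. In kidney that share was 25.3%, against 39.7%. With the pair summed and chow heart replicate 3 also left out, a setting chosen after seeing the data, 5 genes were called in heart. In kidney 5 genes were called, 3 to 5 with a library left out, and all genes gave 1314 and 412 to 3402, the highest without ketogenic replicate 1. In liver 5 were called, 3 by DESeq2, 3 with the pair summed and 3 to 4 with a library left out; Lox was not tested under the stricter filter. Differences between organs gave 2 for heart minus liver (1 to 3 with a library left out) and 3 for kidney minus liver (1 to 4).

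Same-numbered libraries correlated between −0.142 and 0.104 over 9 pairs of libraries (ketogenic and chow of an organ), so the numbers were not taken to pair samples. With the replicate number as a block, kidney gave 810 genes, kidney minus liver gave 1 of the 10 genes, and P4ha2 in kidney had an adjusted p of 0.0658 by edgeR.

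Directions turned in 3 uncalled results. Kidney Plod3 (log2 fold change 0.02) was −0.0705 with total-count scaling, and −0.0594 to 0.0682 with a library left out. Liver Plod1 (0.02) was −0.0013 with all 18 libraries in 1 model, and −0.0405 to 0.14 with a library left out. Liver Plod2 (0.27) was −0.18 to 0.51 with a library left out, the lowest without ketogenic replicate 1. The cause was not tested. Depth limits liver Lox and Plod2, which rest on at most 37 counts a library.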
